A study of Mus musculus with 6 samples.

Results

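The miR-297, miR-466, miR-467 and miR-669 families are groups of rodent microRNAs (miRNAs), most of which are encoded in a large repeat cluster inside the gene Sfmbt2. Members were chosen by name: every array entry called mmu-miR-297, mmu-miR-466, mmu-miR-467 or mmu-miR-669, with any letter, copy number or arm. The rule gave 61 of the 1881 mouse miRNAs on the array, and it used no measured value. Of these, 3 belonged to miR-297, 23 to miR-466, 12 to miR-467 and 23 to miR-669.

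The tissue was tumour from C57BL/6 mice inoculated in the right flank with Hepa1-6, a mouse hepatoma cell line grown in culture. In the first group, 3 mice were treated with GLE, whose name is not expanded in the labels. The daily dose was 0.023 g, stated for an animal weighing 10 g. In the second group, called model, 3 mice received 0.2 ml of saline each day for 28 days. All 6 samples carry an age label of 28 days, and each array held Cy3-labelled total RNA from the tumour of 1 mouse. The tumours grew under the skin of the flank from 1 cell line, and whole tumour was measured, so RNA of host cells is included.

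A miRNA is a short RNA cut from a hairpin that guides the silencing machinery to messenger RNAs that pair with its seed, the bases near its 5′ end. The Sfmbt2 cluster lies in an intron of a Polycomb group gene that is expressed from the paternal allele, and it is known best for its expression in the placenta and in embryonic stem cells. Its hairpins arose by repeated duplication, so the families hold many copies that differ by few bases, and many carry runs of alternating purine and pyrimidine. Single members have been studied on their own. miR-466l-3p is known for its effect on interleukin 10 in macrophages, miR-669a for restraining muscle differentiation, miR-467b for repressing lipoprotein lipase, and miR-466h-5p for promoting cell death in starved hamster ovary cells.

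The probe sequences of the members resemble each other closely, which bears on every value given later. Below is 1 probe for each of the 10 members that could be tested, as written in the array files, 5′ to 3′. Capitals mark the longest stretch of alternating G and T or alternating C and A.
miR-466f-3p: gtgtgtaTGTGTGTGTG
miR-466g: TGTGTGTGcatgtgt
miR-466h-3p: GTGTGTGTGTGcgt
miR-466i-3p: tagtgtgtaTGTGTGTGTG
miR-466i-5p: CACACACACACACACA
miR-466q: acgtaTGTGTGTGTGTG
miR-467f: tgtagGTGTGTGTGTGT
miR-669c-3p: tttactTGTGTGTGTGTG
miR-669n: acacacatcCACACACAa
miR-669p-3p: atacGTGTGTGTGTGTatg

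The miR-466i-5p probe was a pure repeat of 16 bases. The stretch in capitals was 12 bases in the miR-466q, miR-467f, miR-669c-3p and miR-669p-3p probes and 8 bases in the miR-466g and miR-669n probes. For contrast, these are probes of 4 members that were detected on none of the arrays, a member of the miR-297 family and the 3 members with a known function named above whose own entry was undetected.
miR-297a-3p: tatgggtaTGTGTGTatgt
miR-466l-3p: aataTGTGTGcatgtatttata
miR-669a-5p: agacatgaacatgCACAC
miR-467b-3p: gtgttgGTGTGTGTat

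Their repeats ran for 7, 6, 5 and 8 bases. The third set comes from 3 miRNAs outside the families whose probes also carry a repeat, and which serve as a comparison. All 3 have the C/A repeat, as have 2 of the 10 tested members, while the other 8 have the G/T repeat.
miR-574-5p: acacactCACACACACAC
miR-1187: ttacacacatACACACACA
miR-3082-5p: acacagACACACACAC

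Mature sequences from RefSeq (GRCm38.p6) were matched by name for 7 of the 61 members, of which 4 were tested. Capitals mark the seed, bases 2 to 8, which differed among all 4.
miR-466i-3p: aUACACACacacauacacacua
miR-466q: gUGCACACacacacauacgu
miR-467f: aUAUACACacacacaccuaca
miR-669n: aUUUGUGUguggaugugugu

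They lie at chr13:17747552-17747573 (plus strand), chr3:28419988-28420007 (plus strand), chr11:69635419-69635439 (minus strand) and chr3:115979905-115979924 (plus strand) in that build. For each of the 7 matched members, the probes were the exact complement of the 3′ end of the miRNA. The repeat in such a probe is therefore the complement of a repeat in the miRNA itself.

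Detection on the array was partial. A probe counted as detected where the share of its spots well above background exceeded 0.5, and a miRNA when at least 1 of its probes did. On at least 1 array, 20 of the 61 members were detected (32.8%), against 498 of all 1881 miRNAs (26.5%). On all 6 arrays, 9 members were detected (14.8%), against 349 of all miRNAs (18.6%), and the other 41 members were detected on none. Detection here means a signal at the probe, which does not separate a member from a near-identical RNA.

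The families differed in how many members gave a signal. No miR-297 member of 3 was detected on any array. In miR-466, 9 of 23 were detected (39.1%), 5 of them on all 6 arrays. In miR-669, 9 of 23 were also detected (39.1%), 3 of them on all 6 arrays. In miR-467, 2 of 12 were detected (16.7%), and miR-467f was the member on all 6. By arm, 7 of 25 entries named 5p were detected, 9 of 26 named 3p and 4 of 10 with no arm in the name. Of those, 1, 5 and 4 could be tested.

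A member was tested where some probe of it was detected on every array of a group, which 10 members passed (16.4%), against 388 of all miRNAs (20.6%). The 10 others that gave a signal were all detected in GLE replicate 2, and most also in model replicate 1. In GLE replicate 2 alone, miR-466h-5p, miR-669b-5p and miR-669o-5p were detected. In GLE replicate 2 and model replicate 1, miR-466m-3p, miR-466m-5p, miR-669e-5p, miR-669f-3p, miR-669h-3p and miR-669l-5p were detected. miR-467a-3p was detected on those 2 arrays and in GLE replicate 3. None of the 10 reached detection on every array of a group, so none has a group difference here.

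Detection differed with the length of the repeat in the probe. Of the members' probes whose longest repeat was at most 4 bases, 0 of 28 were detected on any array. With 5 to 7 bases 9 of 73 were detected (12.3%), with 8 to 10 bases 17 of 47 (36.2%), and with 11 or more 14 of 14 (100%). Among probes of all other miRNAs, 868 of 4017 with at most 4 bases were detected (21.6%), 38 of 222 with 5 to 7 (17.1%), 5 of 13 with 8 to 10 (38.5%) and 1 of 1 with 11 or more. Within the families, probes with longer repeats were detected more often, while outside them probes with the shortest repeats were detected in 21.6% of cases. These counts are a description, since probes of 1 miRNA share its sequence.

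**Figure D1:**
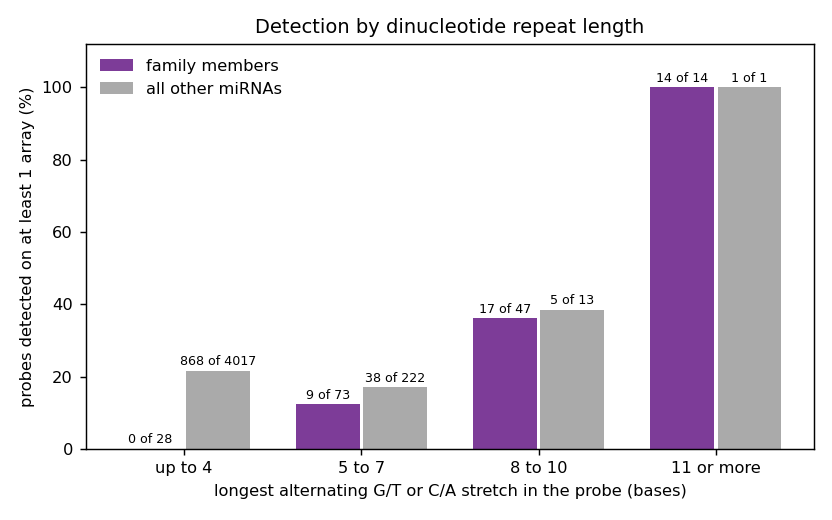
Percent of probes detected on at least 1 array (vertical axis) by the longest alternating G/T or C/A stretch in the probe in bases (horizontal axis), for the 61 members and for all other miRNAs, with counts over each bar. Members run from 0 of 28 probes with at most 4 bases to 14 of 14 probes with 11 or more.

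The same order appeared when whole miRNAs were counted by the longest repeat among their probes. It had a median of 11.5 bases (range 8 to 16) in the 10 tested members, 7 bases (6 to 10) in the 10 detected but untested, and 6 bases (3 to 9) in the 41 undetected. All other miRNAs had a median of 3 bases. The ranges overlapped, and a repeat of 8 or 9 bases did not always come with a signal: miR-466a-5p, miR-466p-5p, miR-467g and miR-669a-3-3p, chosen after their values were seen, had a repeat of 9 bases and were detected on no array. Outside the families 7 miRNAs had a repeat of at least 8 bases, of which miR-574-5p, miR-1187 and miR-3082-5p were tested and 4 (miR-3097-5p, miR-32-3p, miR-6348 and miR-672-5p) were undetected.

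Probes of different length for a single member did not always agree in detection. The 4 probes of miR-466f-3p, of 14, 15, 16 and 17 bases, are complementary to the same miRNA. They were detected on 2, 5, 6 and 6 arrays. The 14-base probe was detected on 1 array of each group. For miR-466g, probes of 13, 14, 15 and 16 bases were detected on 2, 2, 5 and 4 arrays. For miR-467a-3p, probes of 17 to 20 bases were detected on 1, 0, 2 and 3 arrays in order of length. The 4 probes of miR-669p-3p were detected on 6 arrays each, so a longer probe did not in every member come with more detection.

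The name of the cluster holds for the families but only in part for the members that gave a value. In the RefSeq gene table (GRCm38.p6), 71 of 81 genes of these families lie inside Sfmbt2. For 49 members, every gene of that name lies inside it. Of these, 14 were detected (28.6%) and 4 were tested (8.16%): miR-466g, miR-466h-3p, miR-669c-3p and miR-669p-3p. For 8 members every gene lies elsewhere, and 5 of them were detected and tested (62.5%): miR-466i-3p, miR-466i-5p, miR-466q, miR-467f and miR-669n. miR-466f-3p has genes in both places. These counts go by gene name. For miR-669n, the array files place the probe at 1 position on chr2, beside the miR-669c-3p probe, and also list it for miR-669c-5p. The median repeat was 9.5 bases in the 8 members encoded elsewhere and 6 bases in the 49 encoded in the cluster. The tested set is therefore described here by its names and repeats and not as a readout of the Sfmbt2 locus.

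The array files give mm9 positions for some probes, and they list some probes under more than 1 name. For miR-669c-3p the position is chr2:10430991-10431007, for miR-669n chr2:10430951-10430967 and for miR-466i-3p chr13:17839390-17839407. miR-669p-3p has 2 positions, the first at chr2:10410799-10410817. For 29 of the 61 members no probe has a position, for 21 there is 1, and for 11 there are several, up to 17. The miR-669n probe is also listed for miR-669c-5p, a family name with no entry of its own on the array, so a signal there could come from either name. In all, 11 members have a probe that the design also lists under another name of these families, none of which is among the 61 entries. Among the detected ones, miR-669b-5p shares its probe with miR-297a-5p and miR-466f, miR-669l-5p with miR-467h and miR-669d-5p, miR-466m-5p with miR-669m-5p, and miR-669f-3p with miR-669a-3p and miR-669o-3p.

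Cross-hybridisation between the tested members could not be separated from their own signal. Of the 10, 8 have a G/T repeat and 2 a C/A repeat. In all 29 pairs with the same kind of repeat, the probes shared an unbroken identical stretch of 8 to 17 bases, with a median of 10. The 17-base probe of miR-466f-3p is contained whole in that of miR-466i-3p. The 16 pairs of unlike repeat shared 1 to 3 bases on the same strand. Read as reverse complement, those 16 pairs shared 8 to 12 bases. Probes of the G/T kind detect C/A-rich RNA and the reverse, so those pairs match RNAs of opposite repeat.

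The spots of a probe varied little within an array. Over the 20 probes behind the 10 values, each with 7 to 15 spots on an array, the median coefficient of variation between spots was 7.81% and the highest 27.4%. For the 7 members with more than 1 probe, the probes gave group differences of the same sign in all cases and differed by at most 0.18 on the log2 scale.

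The whole arrays give the frame for the members' values. Signals were divided by each array's 75th percentile over the 636 probes with detection on each of the 6, which ran from 203 to 364 intensity units and was highest in GLE replicate 2 (364) and model replicate 1 (313). These arrays also had the most miRNAs detected, 456 and 458, against 378 to 432 on the others. No spot was saturated. All 6 arrays lay on 1 slide, the GLE arrays in 1 row and the model arrays in the other, so row and group cannot be told apart. With 3 arrays in each group the precision is limited by their number. The median half-width of the 95% interval was 0.54 on the log2 scale over the 388 tested miRNAs.

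The number of members detected was highest on the bright arrays. It was 10, 20 and 11 in GLE replicates 1 to 3, with a mean of 13.7 ± 5.51 (SD, n = 3). In model replicates 1 to 3 it was 17, 9 and 10, with a mean of 12.0 ± 4.36 (SD, n = 3). The groups overlapped, and the 2 arrays with the most members were the 2 with the highest 75th percentile. The part of brightness in the members' values was not tested. Levels below are log2 of the scaled signal, so that 0 equals the array's 75th percentile. They have a floor at −4.26, and levels of different members cannot be ranked because each probe has its own response.

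**Figure D2:**
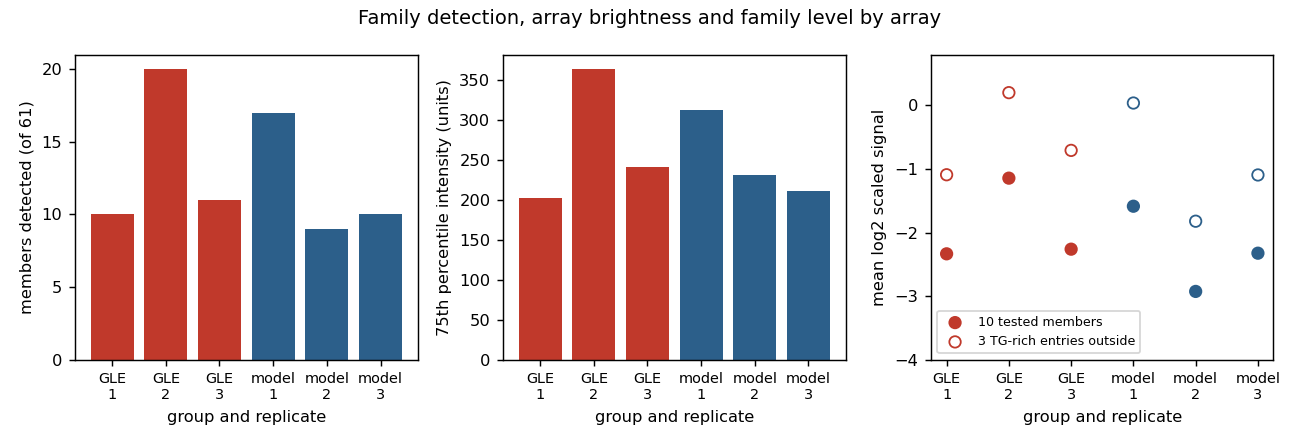
Values by array for GLE replicates 1 to 3 and model replicates 1 to 3: the 75th percentile in intensity units, the number of members detected, and the mean log2 scaled signal of the 10 tested members and of the 3 repeat-bearing miRNAs outside the families. GLE replicate 2 and model replicate 1 have the highest percentile (364 and 313 units) and the most members detected (20 and 17).

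Within miR-466, the 5p entry miR-466i-5p stood at 0.87, 2.15 and 1.12 in GLE replicates 1 to 3 and at 1.89, 0.11 and 0.78 in model replicates 1 to 3. miR-466h-3p stood at −1.88, −0.67 and −1.85 in GLE and at −1.23, −2.48 and −1.86 in model tumours. miR-466q stood at −1.995, −0.92 and −2.15 in GLE and at −1.48, −2.67 and −2.01 in model tumours. In all 3, GLE replicate 2 was the highest array, model replicate 1 the next and model replicate 2 the lowest, and the groups overlapped.

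miR-466f-3p stood at −2.83, −1.31 and −2.83 in GLE and at −1.89, −3.44 and −2.75 in model tumours. Its neighbour in sequence, miR-466i-3p, stood at −2.80, −1.36 and −2.89 in GLE and at −1.90, −3.49 and −2.67 in model tumours. miR-466g stood at −3.75, −2.07 and −3.58 in GLE and at −2.58, −4.26 and −3.70 in model tumours. The model replicate 2 value of miR-466g is the floor, and it was not detected there. In miR-466f-3p, the 15-base probe, which enters its mean, was also at the floor on that array. All 3 had GLE replicate 2 highest and model replicate 2 lowest, with overlapping groups.

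In miR-467, miR-467f stood at −2.08, −1.16 and −2.17 in GLE and at −1.65, −2.71 and −2.20 in model tumours. Again GLE replicate 2 was the highest array, model replicate 1 the next and model replicate 2 the lowest, and the groups overlapped.

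In miR-669, miR-669p-3p stood at −2.43, −1.53 and −2.52 in GLE and at −2.06, −3.02 and −2.51 in model tumours. miR-669c-3p stood at −3.32, −2.43 and −3.28 in GLE and at −2.79, −3.75 and −3.22 in model tumours. miR-669n, which has the C/A repeat, stood at −3.14, −2.15 and −2.47 in GLE and at −2.17, −3.57 and −3.10 in model tumours. For miR-669n, GLE replicate 2 and model replicate 1 were nearly equal, and GLE replicate 3 came next. All 3 had overlapping groups.

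**Figure D3:**
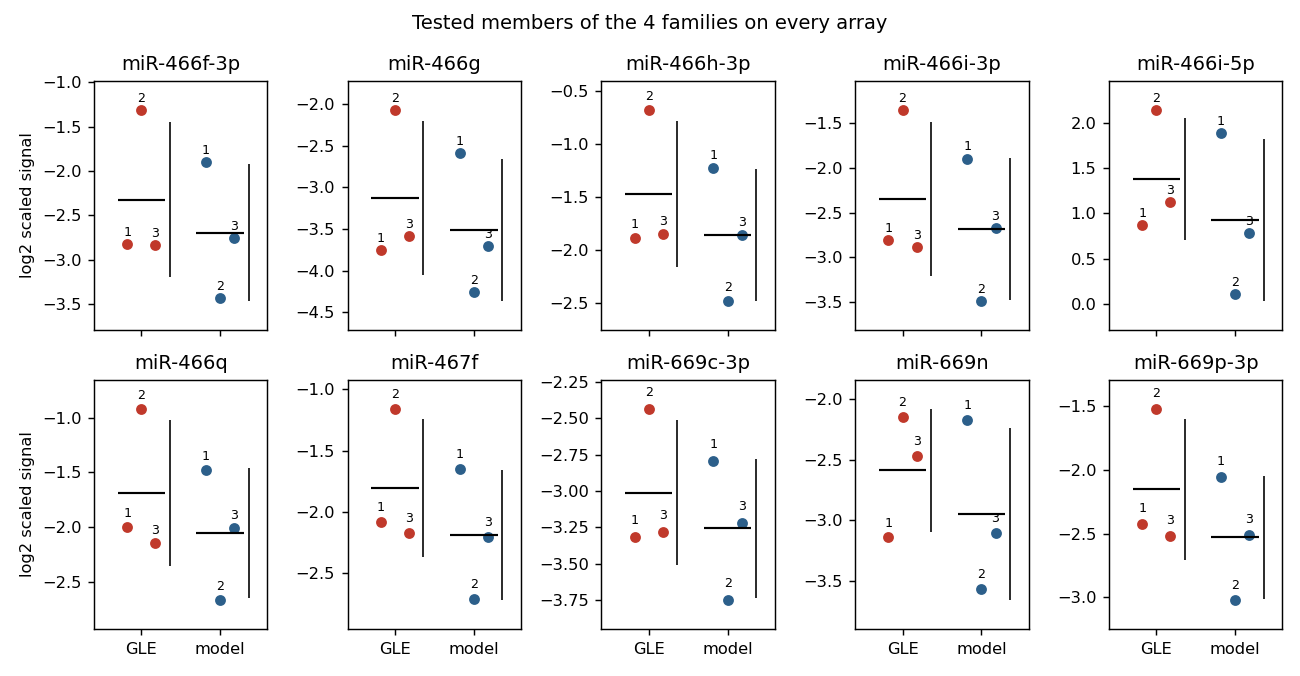
Log2 scaled signal (vertical axis) of the 10 tested members on each of the 6 arrays, with lines for the group means. In every member GLE replicate 2 is the highest and model replicate 2 the lowest array, and the GLE and model points overlap.

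The members thus shared 1 order over the arrays. All 10 were highest in GLE replicate 2 and lowest in model replicate 2, a pattern found in 17 of all 388 tested miRNAs (4.38%) and in 7 of the 378 that are not members (1.85%). The range from lowest to highest array was 1.32 to 2.19 log2 units in the members, with a median of 1.78, against a median of 0.78 over all tested miRNAs. By family the median range was 2.08 in miR-466 and 1.42 in miR-669. Within the groups, GLE replicate 2 stood above the mean of the other GLE arrays by a median of 1.15 in the members, against −0.22 over all tested miRNAs. Model replicate 1 stood above the other model arrays by 1.05, against −0.04, and model replicate 2 stood at −0.93, against −0.02. The members are not independent of each other, given the shared stretches printed above.

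The members' share of signal varied in the same way. Probes of members detected on all 6 arrays made up 0.335%, 0.828% and 0.383% of the summed signal of such probes in GLE replicates 1 to 3 and 0.678%, 0.228% and 0.313% in model replicates 1 to 3. The families were a small part of the detected signal in every tumour. In whole tumour, fewer cells that express a miRNA and less of it per cell cannot be told apart.

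The comparison of GLE with model tumours asks whether the treatment came with different levels of these miRNAs. No member passed the test. In limma, with Benjamini-Hochberg adjustment across the 388 tested miRNAs, 0 of 10 members were called, as were 0 of 388 miRNAs (0%), and the adjusted p-values of the members ran from 0.937 to 0.951. At an unadjusted p under 0.05 there were 0 members and 6 miRNAs in all, and the smallest p of a member was 0.319 (limma), for miR-669p-3p. By the plain criterion that the groups do not overlap, 0 of 10 members qualified, against 26 of 388 miRNAs (6.70%).

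All 10 member means were higher in GLE than in model tumours, with differences from 0.24 to 0.45 and a median of 0.37. miR-466g entered through GLE alone, detected there on 3 arrays and on 2 model arrays, and 1 probe each of miR-466f-3p and miR-466i-3p did the same, so the count of 10 is not support for a direction. With probes detected on all 6 arrays, 9 of 9 members were higher in GLE, with the same median. Over all 388 tested miRNAs, 198 were higher in GLE (51%) and the median was 0.01. By family the median difference was 0.38 for the 6 of miR-466, 0.38 for miR-467f and 0.36 for the 3 of miR-669. The largest difference was in miR-466i-5p, at 0.45 ± 0.51 (SE, n = 3 and 3), a fold of 1.37 with a 95% interval from 0.594 to 3.15. The smallest was in miR-669c-3p, at 0.24 ± 0.33, a fold of 1.18 with an interval from 0.685 to 2.05. Both intervals reach from a lower to a higher level in GLE, so the missed threshold does not show that the groups were alike.

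The other 8 lay between these. The difference was 0.37 ± 0.53 (SE) in miR-466f-3p, 0.38 ± 0.57 in miR-466g and 0.39 ± 0.43 in miR-466h-3p. It was 0.34 ± 0.53 in miR-466i-3p and 0.37 ± 0.42 in miR-466q. It was 0.38 ± 0.37 in miR-467f, 0.36 ± 0.41 in miR-669n and 0.37 ± 0.35 in miR-669p-3p. The SE exceeded the difference in each member except miR-467f and miR-669p-3p.

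The common direction rested on single arrays. Without GLE replicate 2 the median difference was −0.01 and 4 of 10 members were higher in GLE. Without model replicate 2 it was 0.05, with 7 of 10 higher. Without model replicate 1 it was 0.71, and without GLE replicate 1 or 3 it was 0.58, with 10 of 10 higher each time. Leaving out both bright arrays, GLE replicate 2 and model replicate 1, gave a median of 0.30 with 10 of 10 higher, an alternative chosen after the data were seen. With normexp background correction in place of the scanner's own, the median was 0.17. That setting also adds an offset of 50 intensity units to every spot, which by itself narrows log2 differences of dim probes. No member passed the threshold under any of these.

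**Figure D4:**
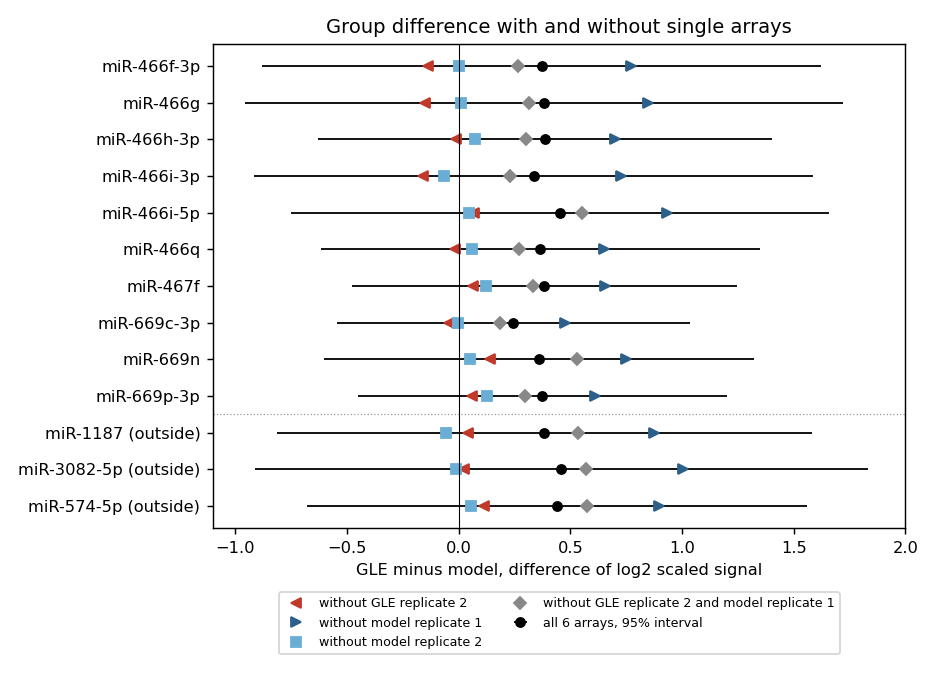
GLE minus model difference of log2 scaled signal (horizontal axis) for the 10 tested members and, under the dotted line, the 3 repeat-bearing miRNAs outside the families, with 95% intervals from all 6 arrays and the values without single arrays. Without GLE replicate 2, 4 of the 10 members stay above 0, and without model replicate 1 all 10 move further up.

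The repeat-bearing miRNAs outside the families showed the same order over the arrays. miR-574-5p, encoded in an intron of the gene Fam114a1, stood at −0.46, 0.71 and −0.06 in GLE and at 0.54, −1.14 and −0.53 in model tumours. miR-1187 stood at −1.62, −0.46 and −1.36 in GLE and at −0.55, −2.42 and −1.63 in model tumours. miR-3082-5p stood at −1.19, 0.36 and −0.70 in GLE and at 0.12, −1.91 and −1.13 in model tumours. All 3 were highest in GLE replicate 2, next in model replicate 1 and lowest in model replicate 2, as were the 10 members. Their differences were 0.44 ± 0.47, 0.38 ± 0.51 and 0.46 ± 0.58 (SE), with a median of 0.44 and limma adjusted p-values from 0.937 to 0.946. The order over arrays was thus seen outside the families too, in probes of the C/A repeat, while 8 of the 10 members have the G/T repeat. Whether these signals come from the named miRNAs or from other RNA with the same repeat was not tested.

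Counted only by the highest array, GLE replicate 2, and the lowest, model replicate 2, these are 3 of the 7 tested miRNAs outside the families with that pattern. The other 4, chosen after their values were seen, were miR-574-3p, miR-706, miR-24-3p and miR-7050-5p. miR-574-3p, with a repeat of 7 bases, and miR-706, with 3, spread over 1.90 and 2.16 log2 units. By its name, miR-574-3p is the other arm of miR-574-5p. In model replicate 2, miR-706 was at the floor and miR-574-3p, at −4.17, was close to it. miR-24-3p and miR-7050-5p spread over 0.18 and 0.23, so their order carries little, and model replicate 1 was not their next highest array. Over all tested non-members the median difference between groups was −0.01 for the 363 with a repeat of at most 4 bases and 0.06 for the 12 with 5 to 7. The remaining 3, with longer repeats, are miR-574-5p, miR-1187 and miR-3082-5p, whose values are given above.

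A pair of other miRNA clusters differed from the members in GLE replicate 2. In the Dlk1-Dio3 cluster, which is also imprinted, 21 of 99 miRNAs were detected (21.2%) and 12 were tested. Their median difference was 0.36, close to that of the members, with 9 of 12 higher in GLE. GLE replicate 2, however, stood at −0.92 against the other GLE arrays there, and 1 of 12 was highest in it. Model replicate 2 was the lowest array in 6 of the 12 (50%), against 79 of all 388 tested miRNAs (20.4%). In the miR-290 to miR-295 cluster of embryonic stem cells, 7 of 18 were detected (38.9%), 5 were tested, and GLE replicate 2 stood at −1.03, with 0 of 5 highest in it. Of the 5, 4 were higher in GLE, with a median difference of 0.19, and 1 was lowest in model replicate 2. The difference between these lists was not tested.

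Markers of liver cells were highest on the same 2 arrays as the members, but their lowest array was another. miR-122-5p, the defining miRNA of hepatocytes, was detected in GLE replicate 2 and model replicate 1 alone. miR-192-5p stood at −3.01, 0.26 and −3.46 in GLE and at −1.64, −2.51 and −3.69 in model tumours, and miR-194-5p was highest in GLE replicate 2, at −0.97. The summed scaled signal of these 3 ran from 0.0989 to 1.47 in GLE and from 0.0899 to 0.398 in model tumours, highest in GLE replicate 2 and model replicate 1. In model replicate 2, where the members were lowest, the sum was 0.223, above GLE replicates 1 and 3 and model replicate 3. miR-192-5p and miR-194-5p were the 2 tested of the 3, with 0 called. Hepa1-6 derives from liver, and this defining marker was undetected on the other 4 arrays. The part of liver markers in the members' values was not tested.

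Markers of other cells were highest on arrays other than GLE replicate 2. Those of blood cells, fibroblasts and endothelium were lowest in model replicate 2, as the members were, and so was the mostly undetected epithelial sum. Muscle markers were lowest in model replicate 1 and erythrocyte markers in GLE replicate 3. The blood cell markers miR-142a-3p, miR-150-5p, miR-223-3p and miR-342-3p summed to 5.09 to 14.96 in GLE, lowest in replicate 2, and to 4.20 to 6.68 in model tumours. The fibroblast markers miR-199a-3p, miR-199a-5p and miR-214-3p summed to 1.30 to 4.30 in GLE, also lowest in replicate 2, and to 1.08 to 1.82 in model tumours. Muscle markers (miR-1a-3p, miR-133a-3p, miR-206-3p) summed to 1.202 to 4.095 and 0.740 to 1.78. The scaled signal of the endothelial miR-126a-3p, linear like these sums and not log2, was 2.96 to 4.12 and 2.36 to 2.79. Erythrocyte markers (miR-451a, miR-144-3p, miR-486a-5p) summed to 3.02 to 11.1 and 4.34 to 12.7. Of the epithelial markers, miR-200c-3p was detected on no array and miR-205-5p on 1 model array. Their part in the members' values was not tested.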

How the data were processed

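The deposited scanner files hold intensity on a linear scale, from which, per the file headers, Agilent Feature Extraction 10.7.1.1 had subtracted background and a spatial trend. They were not normalised between arrays. Probe positions are on mm9 per the file headers. RefSeq tables (GRCm38.p6) gave names, sequences and gene neighbourhood only, and no position was set against mm9.

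Values were computed in R 4.3.3 and limma 3.58.1. Of 56430 spots per array beside controls, 1401 to 1883 flagged as outliers were dropped, and the rest were averaged within each of 4415 probes. Arrays were divided by the 75th percentile of the 636 probes detected on all 6, floored at −4.26 (log2) and log2 transformed. A miRNA took the mean of those probes that every array of a group detected. lmFit and eBayes compared the groups (two-sided, with 4 residual degrees of freedom and 3.05 prior ones) at an adjusted p of 0.05. The labels give separate mice. The fit was also run on simulated data with independent noise and shifts larger than the members' differences. That run does not bear on correlated members with differences of the size seen here.

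The authors also deposited a log2 table of 1881 miRNAs, used as an alternative. How it was made is not stated in those sources, and its centring and normalisation stay unknown. Its column medians were −3.20, −3.32 and −3.27 for GLE and −3.32, −3.17 and −3.13 for model replicates 1 to 3, each the lowest value of its column, shared by 69.2% to 75.8% of miRNAs.

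Members, lists and tests were chosen with earlier results of these data known. Named are all tested members, members detected but untested, 3 repeat-bearing miRNAs outside the families and the cell markers. Also named are undetected members printed for contrast, the undetected miRNAs outside the families with a repeat of at least 8 bases, and names that share a probe. The rest are marked as chosen after their values were seen.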

Additional observations from a re-analysis of the deposited data

How the results depend on the processing

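Over 12 alternatives that kept all arrays, 119 of 119 values of the tested members were higher in GLE (0.03 to 0.60) and 0 passed the threshold. Among the alternatives, another variance fit and a block for replicate number leave each difference unchanged by design. All of them reuse the same arrays, so the count is not support for a direction. The medians were 0.29 with the percentile over all probes, 0.29 with quantile normalisation, 0.45 with no scaling, 0.17 with normexp (offset 50) and 0.30 in the authors' deposited table. With no filter, 18 of 61 members were higher in GLE and the median was 0. The rest had a difference of 0, with values at the floor on every array, and none was lower in GLE. Leaving out each replicate in turn moved the median from −0.01 to 0.71 and the number of members higher in GLE from 4 to 10. Under these the difference ran from −0.14 to 0.77 in miR-466f-3p, −0.15 to 0.85 in miR-466g, −0.012 to 0.70 in miR-466h-3p, −0.16 to 0.73 in miR-466i-3p, −0.018 to 0.65 in miR-466q, −0.044 to 0.47 in miR-669c-3p, −0.059 to 0.88 in miR-1187 and −0.01 to 1.01 in miR-3082-5p. The entries just listed are those whose sign changed. In miR-466i-5p, miR-467f, miR-669n, miR-669p-3p and miR-574-5p the difference stayed above 0. Members past the threshold stayed at 0 (0 to 0). All miRNAs past it ranged from 0 to 2. The 2, without GLE replicate 2, were miR-338-3p and miR-342-3p (limma adjusted p = 0.0405 and 0.0466, named after their values were seen). The cause was not tested. Members detected were 17 to 20 when 1 replicate was left out, 18 when every spot had to be above background, 27 by the scanner's own flag, and 11 without GLE replicate 2 and model replicate 1, where fewer arrays enter. The replicate block cannot change the differences, so the median stayed at 0.37 by design, and 0 members passed (smallest limma adjusted p = 0.980). The shared numbers did not pair the mice: correlations of same-numbered deviations over 388 miRNAs were −0.62, −0.18 and 0.38. A slide block was not run, since there is 1 slide. Signal over background limits the undetected members, for which no difference is given.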
